A study of Rattus norvegicus with 8 samples.

Results

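Epithelial keratins, cadherins and junction genes were followed in FRTL-5, a rat thyroid follicular cell line that depends on thyrotropin (TSH). All probe sets annotated to Krt7, Krt8, Krt18, Krt19, Cdh1, Cdh16, Epcam, Ocln, Tjp1 or Vim were taken, which gave 13 probe sets for 10 genes among the 31099 on the array. The cells were of the SB5 sub-clone and stably expressed a human TSH receptor, which carried the mutation L629F, known to switch on signalling in the absence of TSH, or was wild type (WT). The 4 groups were L629F cells given 1 mM sodium iodide, L629F cells given 1 mM sodium chloride, WT cells given 1 mM sodium iodide and WT cells given 1 mM sodium chloride, with 2 arrays in each. All 4 groups were grown with 5 mU/ml bovine TSH, so the wild type receptor was also exposed to hormone. Each receptor is represented by a single line in the labels, so receptor and line cannot be told apart, and the length of the salt treatment is not stated. Nor is it stated that the 2 arrays of a group are separate cultures, and the p-values therefore reflect only how far these samples spread, possibly for technical reasons.

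Keratins are filament proteins that pair across types. Krt7 and Krt8 are type II keratins, Krt18 and Krt19 are type I, and Vim (vimentin) builds the filaments typical of mesenchymal cells. Cdh1 (E-cadherin) and Epcam join neighbouring epithelial cells, and Cdh16 (Ksp-cadherin) is a cadherin known from kidney and thyroid epithelium. Ocln (occludin) is a membrane protein of tight junctions, the seals that close the follicle lumen, and Tjp1 (ZO-1) is the scaffold beneath it.

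Signals were MAS5 intensities, in which 1 value summarises the probes of a probe set on an array. Of the 13 probe sets, 8 (for 6 genes) were bright enough to be tested. The other 5 lay among the lowest 40% of probe sets by mean log2 value. Turned back from the log2 scale, that cut is a signal of 69.9, which is not a plain mean of signals. The 5 were the single probe sets of Krt18, Krt19 and Epcam and both probe sets of Cdh1. The thyroid identity of the cells showed in all 11 probe sets of 9 follicular cell genes being bright enough to test, for example the brighter probe set of Tg, thyroglobulin, at 10748 to 16582 over the 8 arrays, and Nkx2-1, a thyroid transcription factor, at 7031 to 9722. Of the 9 epithelial genes among the members, 5 were bright enough and the widely used epithelial markers Cdh1 and Epcam were not.

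The promoters of Krt8 and Krt18, the filament partners, are shown with those of Epcam, whose signals were dim, and Vim, whose signals were high on every array. The sequences are the bases from 250 to 51 before the annotated transcript start in RefSeq on the GRCr8 assembly, where 6 of the 10 genes had an entry, and capitals mark matches to 5 motifs on either strand. Searched were the TATA box (TATAAA), the GC box (GGGCGG), the E-box CACCTG bound by Snail and Zeb factors, the AP-1 site (TGANTCA) and the cAMP response element (TGACGTCA).
Krt8 (chr7:135010390-135010589, minus strand): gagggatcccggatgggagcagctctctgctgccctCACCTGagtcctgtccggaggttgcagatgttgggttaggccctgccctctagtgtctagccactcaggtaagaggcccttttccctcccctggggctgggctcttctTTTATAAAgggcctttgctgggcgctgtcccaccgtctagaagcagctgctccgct
Krt18 (chr7:135035918-135036117, plus strand): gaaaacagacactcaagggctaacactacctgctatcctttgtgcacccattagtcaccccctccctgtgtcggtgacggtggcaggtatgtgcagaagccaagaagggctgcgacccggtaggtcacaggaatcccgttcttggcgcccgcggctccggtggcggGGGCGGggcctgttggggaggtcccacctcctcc
Epcam (chr6:12649729-12649928, minus strand): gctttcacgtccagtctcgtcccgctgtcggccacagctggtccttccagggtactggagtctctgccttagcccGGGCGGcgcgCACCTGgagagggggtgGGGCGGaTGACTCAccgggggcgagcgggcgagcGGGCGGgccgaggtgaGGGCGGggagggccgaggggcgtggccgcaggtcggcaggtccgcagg
Vim (chr17:81577011-81577210, plus strand): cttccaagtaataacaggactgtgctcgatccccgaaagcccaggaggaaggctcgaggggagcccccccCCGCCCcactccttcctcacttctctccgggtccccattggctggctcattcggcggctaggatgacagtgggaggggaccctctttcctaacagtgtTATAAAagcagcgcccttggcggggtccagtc
The Krt8 and Vim windows held a match to the TATA box letters, as did 9.98% of 33469 promoter windows of the same length. All windows end 51 bases before the annotated start. A TATA box closer to the start would thus be missed, in these genes and in the others. The Krt8 match reads TATAAA on both strands, in overlapping positions. A GC box stood in the Krt18, Vim and Epcam windows, 4 times in that of Epcam, and in 24.2% of all windows. The E-box stood in the Krt8 and Epcam windows and in 13.1% of all, the AP-1 site in that of Epcam and in 5.22% of all. The cAMP response element, which 0.944% of all windows held, was in none of the 6 member windows. In the same annotation Krt8 and Krt18 lie on chromosome 7 with 1 gene between them, and Krt7 lies 31 genes away from Krt8, with 25 keratin genes in between.

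The type II keratins Krt7 and Krt8 had lower mean signals with iodide in both lines, although neither passed the test across all probe sets. Krt7 (probe set 1373900_at) had signals of 1014 and 1127 in L629F cells with iodide and 1249 and 1204 in L629F cells with chloride. In WT cells Krt7 had 805 and 788 with iodide and 1564 and 1333 with chloride. The iodide and chloride arrays of Krt7 did not overlap in either line, and the WT iodide arrays were the lowest of the 8. Of all 18625 probe sets tested, 5.81% were likewise lower with iodide without overlap in both lines. As a difference in log2(signal + 35.3), Krt7 differed, iodide minus chloride, by a mean of -0.51 ± 0.11 over both lines (SE, 2 arrays per group, limma, Benjamini-Hochberg adjusted p = 0.0612). The difference was -0.19 ± 0.16 in L629F cells (adjusted p = 0.867) and -0.83 ± 0.16 in WT cells (adjusted p = 0.0647). Its difference between the lines was 0.64 ± 0.23 log2, with a 95% interval of 0.14 to 1.13 and an unadjusted limma p of 0.0153, but an adjusted p of 0.998. With the brightest probe set of each gene alone in the fit, and so fewer tests, Krt7 passed for the mean of both lines (adjusted p = 0.037) and in WT cells (0.0374). Between the receptors, L629F minus WT, Krt7 differed by 0.41 ± 0.16 log2 with iodide (adjusted p = 0.405) and by -0.23 ± 0.16 with chloride (0.606). Arrays measure bulk RNA, in which fewer cells expressing a gene and less RNA per cell cannot be told apart.

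Krt8 (1371530_at) had signals of 167 and 257 in L629F cells with iodide and 345 and 229.9 in L629F cells with chloride, which overlapped. In WT cells it had 105 and 147 with iodide and 215 and 218 with chloride, which did not. The mean difference with iodide was -0.52 ± 0.21 log2 (limma, unadjusted p = 0.0262, adjusted p = 0.309). Between the receptors Krt8 differed by 0.47 ± 0.21 log2, L629F minus WT (95% interval 0.02 to 0.92, unadjusted p = 0.041, adjusted p = 0.256). Of 13921 other named probe sets, the 3 whose values followed those of Krt8 most closely over the 8 arrays were those of Tro, Abo and Insig1. Their root mean square differences from Krt8, each probe set centred on its own mean, were 0.143, 0.145 and 0.161 log2, against a median of 0.477. As they were picked as the closest, lying under the median was fixed in advance. Whether they are closer than the best match by chance was not tested.

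The type I keratins among the members, Krt18 and Krt19, were dim. Krt18 (1388155_at), the usual partner of Krt8, had 73.5 and 66.8 in L629F cells with iodide and 91.1 and 84.1 with chloride, against 14.1 and 52.8 in WT cells with iodide and 48.7 and 79.1 with chloride. The L629F arrays of each salt lay above the WT arrays of the same salt, on an array set in which low signals in general ran higher in L629F cells. The share of all probe sets with that order within both salts was not counted. Krt19 (1388433_at) had between 4.29 and 51.7, and its 2 arrays of L629F cells with chloride, 5.04 and 51.7, spanned nearly that range. When no probe set was left out as dim, none of the 35 tests on the 5 dim probe sets passed or had an unadjusted p under 0.05 (limma, lowest adjusted p 0.355).

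Vim (1367574_at) was high on every array. It had 9191 and 10559.8 in L629F cells with iodide and 6861 and 7909 with chloride, against 8309.7 and 12044 in WT cells with iodide and 7832 and 10619 with chloride. The groups did not overlap between salts in L629F cells and overlapped in WT cells. The difference with iodide was 0.42 ± 0.18 log2 in L629F cells (adjusted p = 0.712) and 0.13 ± 0.18 in WT cells (adjusted p = 0.87). Without WT iodide replicate 2, the array of highest Vim signal, the WT difference was -0.13. With the GAPDH 3′ to 5′ signal ratio, a measure of RNA degradation, as a covariate, the Vim difference was 0.22 in L629F cells, -0.18 in WT cells and 0.02 in the mean, against a mean of 0.28 ± 0.13 without it. Between the receptors it was -0.16 ± 0.13 averaged over both salts (95% interval -0.45 to 0.12, adjusted p = 0.542). Of the fibroblast markers, 2 of 13 probe sets were bright enough to test. The summed signal of the 13 was 462 to 752 in L629F cells with iodide and 541 to 581 with chloride, against 421 to 546 in WT cells with iodide and 394 to 500.3 with chloride. Dcn, the fibroblast proteoglycan decorin, was at 2.59 to 12.8 on all arrays and Col1a2, a fibrillar collagen chain, at 54.2 or less. The probe sets bright enough were the brighter one of Col1a1, another fibrillar collagen chain, at 88.0 to 186, and that of Pdgfra, a growth factor receptor, at 27.8 to 226. Col3a1, a further collagen chain, was left out as dim at 24.7 to 136. Of the markers of other cell types, 0 of 6 probe sets for C cells, 1 of 5 for endothelium and 1 of 8 for leucocytes were bright enough.

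**Figure D1:**
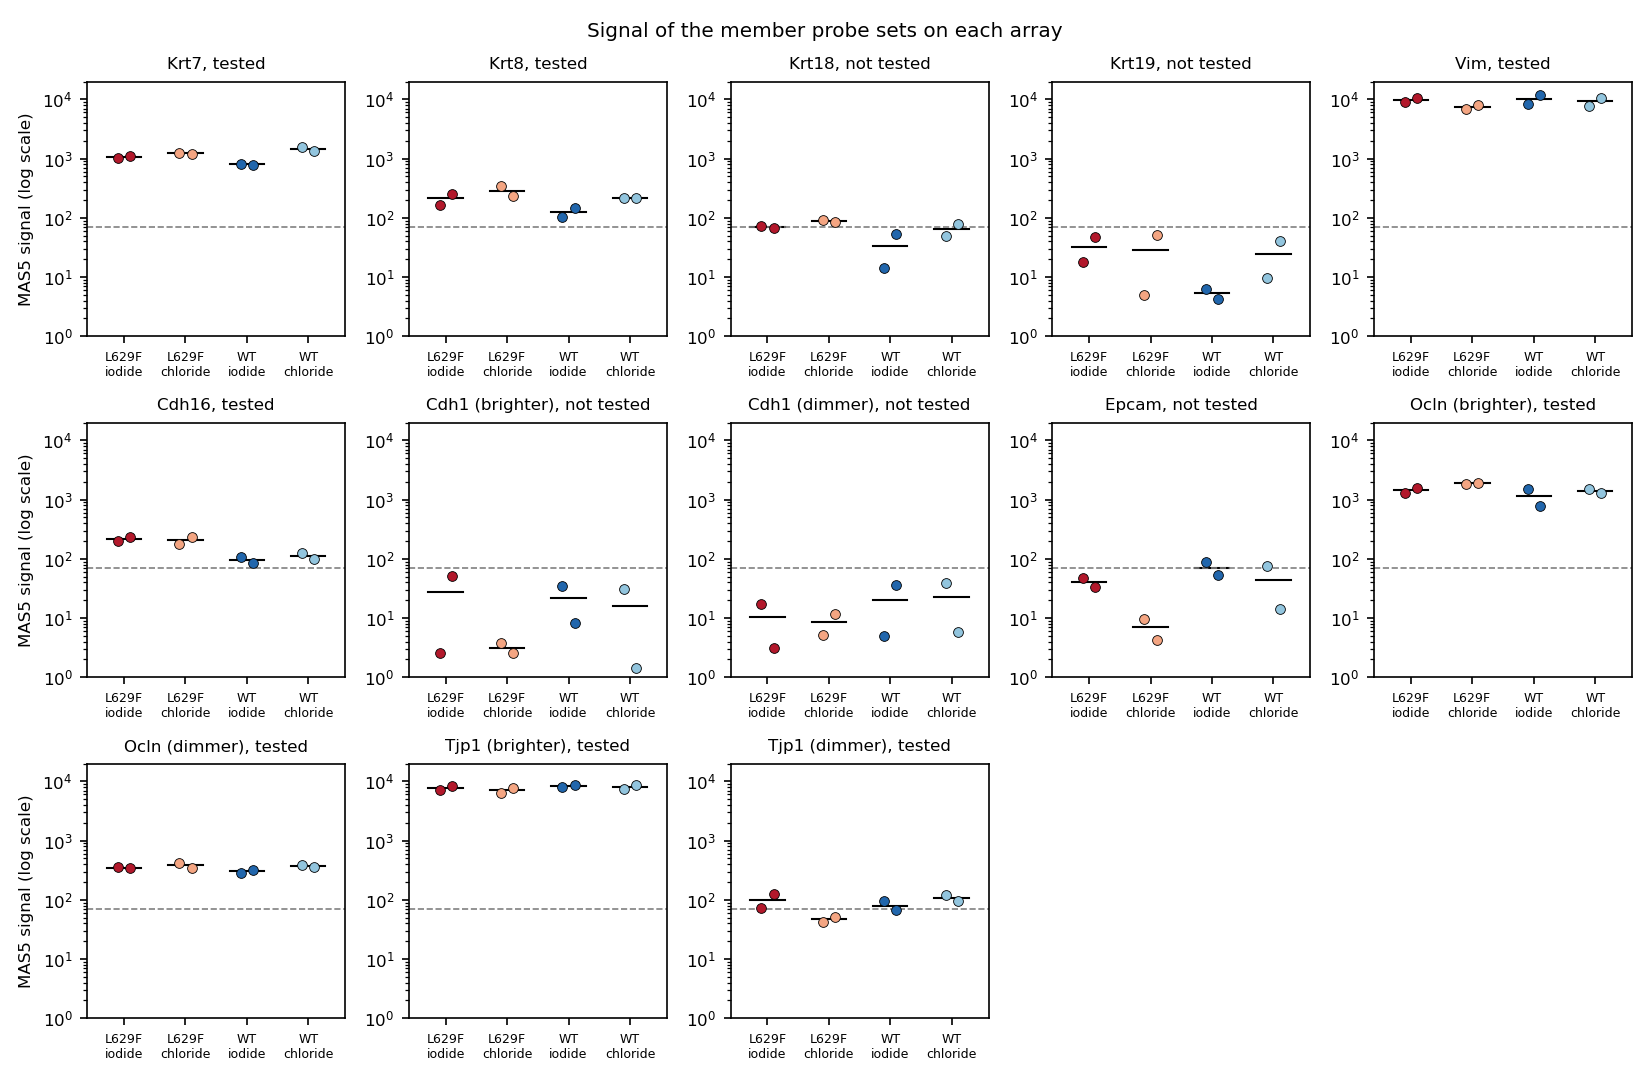
MAS5 signal of each of the 13 probe sets on a log axis, by group, with 1 point per array and a bar at the mean of the 2 arrays. The dashed line marks the cut for dim probe sets, a signal of 69.9 when turned back from the mean log2 value, whereas the bars are plain means. Vim and the brighter Tjp1 probe set lie far above the line on all 8 arrays while Cdh1 stays under it.

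Averaged over both salts, Cdh16 differed between the receptor lines more than any other tested member, and did not pass. With chloride alone the dimmer Tjp1 probe set differed more, by -0.80 log2 (limma, adjusted p = 0.431). The Cdh16 probe set (1390822_at) had 199 and 235 in L629F cells with iodide and 178 and 236 with chloride. In WT cells Cdh16 had 106 and 83.4 with iodide and 123 and 98.1 with chloride. All 4 L629F arrays lay above all 4 WT arrays, as was so for 5.68% of the probe sets tested. The mean difference, L629F minus WT, was 0.84 ± 0.21 log2 (95% interval 0.39 to 1.29, limma, unadjusted p = 0.00143, adjusted p = 0.0632). It was 0.96 ± 0.30 with iodide (adjusted p = 0.28) and 0.73 ± 0.30 with chloride (adjusted p = 0.354). Low signals ran higher on the L629F arrays, with 25th percentiles of 40.8 to 43.1 against 29.3 to 31.6 on the WT arrays. After every array was set to 1 common median over all probe sets, which took out a shift of 0.171 log2 between the lines, Cdh16 differed by 0.67 (adjusted p = 0.069). With the brightest probe set per gene alone in the fit it passed (adjusted p = 0.0475). Between salts Cdh16 differed by -0.05 ± 0.21 log2 (95% interval -0.50 to 0.40).

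Cdh1 gave no steady signal. Its brighter probe set (1386446_at) had 2.54 and 52.2 in L629F cells with iodide and 3.73 and 2.55 with chloride, against 34.7 and 8.19 in WT cells with iodide and 30.9 and 1.46 with chloride. Its other probe set (1386947_at) lay between 3.16 and 38.6. The arrays of highest and lowest signal differed between the 2 probe sets of Cdh1, and the groups overlapped on both. Epcam (1388199_at) had 46.8 and 33.4 in L629F cells with iodide and 9.71 and 4.28 with chloride, against 88.4 and 53.0 in WT cells with iodide and 75.3 and 14.0 with chloride. Its L629F arrays lay under the WT arrays of the same salt, the reverse of the general order of low signals. How common that is over all probe sets was not counted. The difference for Epcam without the dim filter was -0.64 ± 0.31 log2 (limma, unadjusted p = 0.0601, adjusted p = 0.355).

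The tight junction scaffold Tjp1 was bright, and its groups lay close together. On its brighter probe set (1372473_at) it had 7098 and 8308 in L629F cells with iodide and 6250.02 and 7796 with chloride, against 8043 and 8549 in WT cells with iodide and 7517 and 8508 with chloride. The iodide and chloride arrays of Tjp1 overlapped in both lines, and its mean difference was 0.09 ± 0.10 log2 for iodide (95% interval -0.12 to 0.31) and -0.15 ± 0.10 for L629F (-0.37 to 0.07). Its dimmer probe set (1395337_at) had 73.5 and 127 in L629F cells with iodide and 42.0 and 51.4 with chloride, against 93.8 and 66.3 in WT cells with iodide and 119 and 96.5 with chloride. Both iodide arrays were above the chloride arrays in L629F cells and below them in WT cells, a pattern that the brighter probe set did not have. Its share over all probe sets was not counted.

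Ocln on its brighter probe set (1378753_at) had 1305 and 1549 in L629F cells with iodide and 1860.2 and 1923 with chloride, against 1506 and 789 in WT cells with iodide and 1505 and 1272 with chloride. The salts did not overlap in L629F cells and overlapped in WT cells, where the second iodide array stood far below the first. The mean difference was -0.37 ± 0.17 log2 for iodide (limma, unadjusted p = 0.049, adjusted p = 0.405) and 0.41 ± 0.17 for L629F (unadjusted p = 0.0322, adjusted p = 0.232). The low array, WT iodide replicate 2, had the highest GAPDH 3′ to 5′ signal ratio of the 8, 3.13 against 1.22 to 2.49 on the others, a ratio that is higher where RNA is degraded. Whether degradation bears on the low Ocln value of that array was not tested. Without that array the difference was -0.14 for iodide (adjusted p = 0.714) and 0.18 for L629F (0.496). Without the other WT iodide array it was -0.59 (adjusted p = 0.0428) and 0.63 (0.0329), so 1 array decided the size. With the GAPDH ratio as a covariate, Ocln differed by -0.06 for iodide (adjusted p = 0.901) and by 0.59 for L629F (0.0258). The dimmer Ocln probe set (1398281_at) lay between 284 and 412 on all arrays, and differed by -0.19 ± 0.15 for iodide and 0.10 ± 0.15 for L629F. It was not low on WT iodide replicate 2, with 325 there against 284 on replicate 1.

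**Figure D2:**
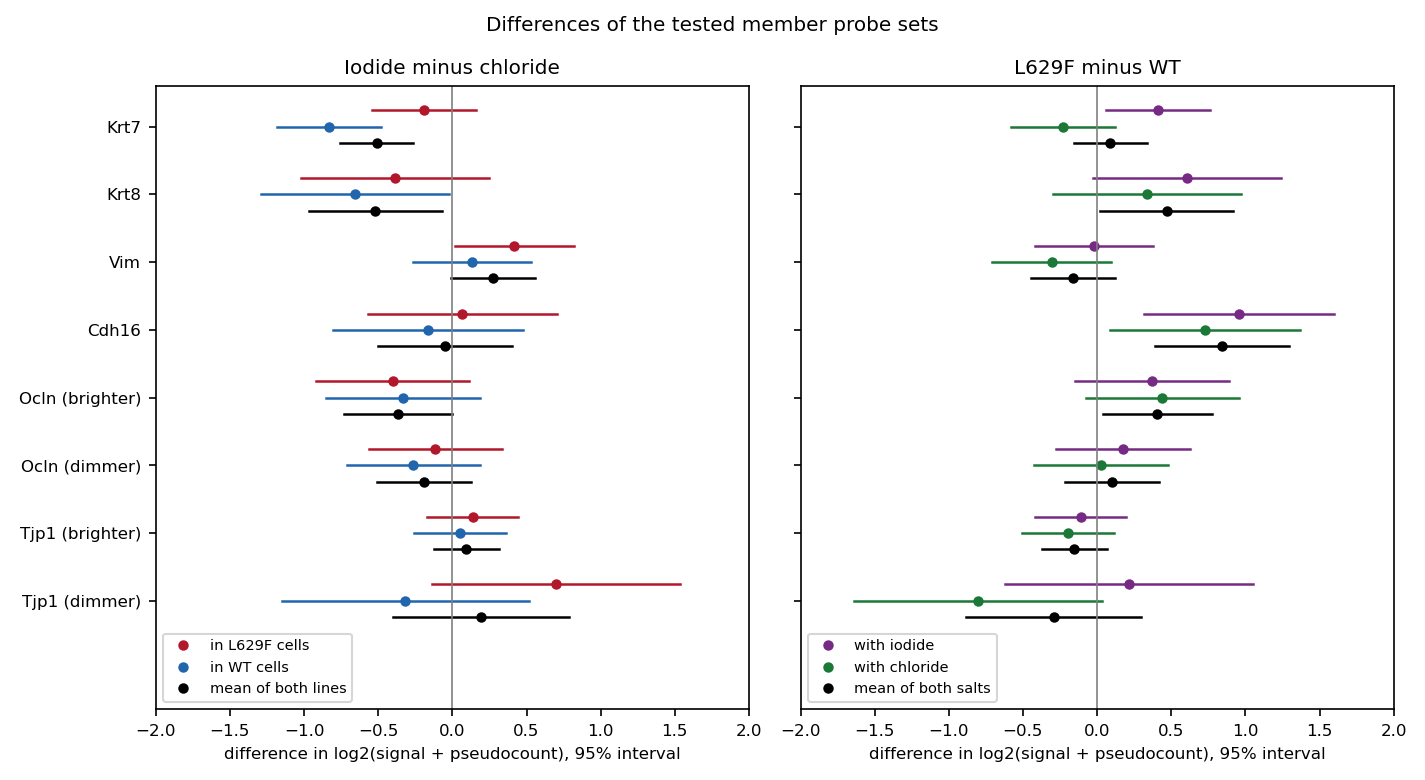
Difference in log2(signal + 35.3) with its 95% interval from limma for the 8 tested probe sets, iodide minus chloride on the left and L629F minus WT on the right, within each stratum and as the mean of both. The mean intervals of Krt7, Krt8 and the brighter Ocln probe set for iodide and of Cdh16, Krt8 and the brighter Ocln probe set for L629F lie on 1 side of 0.

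None of the 8 tested probe sets passed an adjusted p of 0.05 in any of the 7 comparisons (limma, two-sided, adjusted over 18625 probe sets). For the mean effect of iodide 0.854% of all probe sets tested passed, for iodide in L629F cells 0.0161% and in WT cells 0.231%. For the mean effect of L629F 1.76% passed, with iodide 0.172% and with chloride 0.15%, and for the difference of the iodide effect between the lines 0%. At an unadjusted p under 0.05, 3 of the 8 differed for the mean effect of iodide, namely Krt7, Krt8 and the brighter Ocln probe set, all lower, against 12.2% of all probe sets. For the mean effect of L629F 3 of the 8 did, namely Cdh16, Krt8 and the brighter Ocln probe set, all higher, against 18.1% of all. The median difference over the 8 was -0.12 log2 for iodide (all probe sets, -0.0033) and 0.10 for L629F (all probe sets, 0.01). In the comparisons within 1 line or 1 salt, which share arrays with each other, the unadjusted p was under 0.05 for 1 of the 8 with iodide in L629F cells (Vim, higher), against 6.94% of all probe sets. In WT cells it was so for 2 (Krt7 and Krt8, lower), against 10.4% of all. Between the receptors it was so for 2 with iodide (Cdh16 and Krt7, higher), against 10.8% of all, and for 1 with chloride (Cdh16, higher), against 12.2% of all, a share near that of the members. For the difference of the iodide effect between the lines it was so for 1 (Krt7), against 4.01% of all.

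The genes that work beside these were read from 7 lists with 65 genes and 95 probe sets tested. For iodide none of the 95 passed in the mean, in L629F or in WT cells, where 0.854%, 0.0161% and 0.231% of all probe sets did. At an unadjusted p under 0.05 (limma) there were 10, 3 and 8 of the 95, against 12.2%, 6.94% and 10.4% of all. For the mean effect of L629F 1 rose and 2 fell, against 1.76% of all probe sets that passed. At an unadjusted p under 0.05 (limma) there were 20 of the 95, against 18.1% of all. The medians of the 95 for the mean effects were -0.01 log2 for L629F and 0.04 for iodide. Between the receptors none passed with iodide or with chloride, with 12 and 14 of the 95 at an unadjusted p under 0.05, near the 10.8% and 12.2% of all probe sets. Without an intensity trend in the variance estimate, none of the calls named from these lists or from the mesenchymal list passed.

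Of the other keratins, 3 of 14 genes with a probe set were bright enough, Krt10, Krt17 and Krt86. Krt17, a type I keratin of basal and injured epithelium, rose in L629F cells, with 352 and 243 with iodide and 552 and 438 with chloride, against 138 and 115 in WT cells with iodide and 243 and 192 with chloride. Its receptor lines did not overlap within either salt, an order whose share over all probe sets was not counted. The mean difference was 1.05 ± 0.18 log2 (limma, adjusted p = 0.0139). With single arrays removed in turn, Krt17 still passed in 4 of the 8 fits, and not without L629F chloride replicate 1, L629F iodide replicate 1 or either WT chloride array (adjusted p up to 0.0795). With iodide Krt17 had a mean difference of -0.66 ± 0.18 (adjusted p = 0.123).

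The catenins tie cadherins to actin. All 4 genes listed (Ctnna1, Ctnnb1, Ctnnd1 and Jup) were tested, with Ctnna1 at 4549 to 5649, Jup at 2975 to 3408 and the brightest probe set of Ctnnb1 (beta-catenin) at 19145 to 33249 over the 8 arrays. Ctnnd1 (p120 catenin) lay at 167 to 386, another Ctnnb1 probe set at 499 to 1127, and a further one was left out as dim at 3.29 to 67.3. None of the 26 probe sets of the adherens junction and nectin list passed for iodide. Nectin3, an adhesion molecule of adherens junctions, fell in L629F cells on its brightest probe set, with 3367 and 3717 with iodide and 3899 and 3822 with chloride, against 4932 and 4937 in WT cells with iodide and 5674 and 5190 with chloride. All 4 L629F arrays lay below all 4 WT arrays, a pattern whose share over all probe sets was not counted. The mean difference was -0.48 ± 0.09 log2 (limma, adjusted p = 0.0201). With single arrays removed it passed in 2 of the 8 fits, those without a WT iodide array (adjusted p up to 0.108 in the others), and the other 2 Nectin3 probe sets, at -0.19 and -0.16, did not pass.

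Among tight junction genes, 12 of 26 with a probe set were bright enough, and none of their 17 probe sets passed in the mean effect of iodide or of L629F. Of 13 claudins, the family that sets which ions pass a tight junction, only Cldn12 was bright enough, at 458 to 822 over the 8 arrays. F11r (JAM-A), an adhesion molecule of tight junctions, lay at 979.95 to 1333 and Cgn (cingulin), which binds ZO proteins, at 296 to 479. Among polarity genes, 12 of 14 with 16 probe sets were tested. Pals1, a scaffold of the Crumbs complex, fell in L629F cells on its dimmer probe set, with 633 and 728 with iodide and 620.4 and 763 with chloride, against 1234 and 1194 in WT cells with iodide and 1025 and 896 with chloride. All 4 L629F arrays again lay below all 4 WT arrays, a pattern whose share was likewise not counted. The mean difference was -0.63 ± 0.13 log2 (limma, adjusted p = 0.0259). It passed in 1 of the 8 fits with an array removed, that without L629F chloride replicate 2 (adjusted p up to 0.129 in the others), and the brighter Pals1 probe set differed by -0.28 (adjusted p = 0.211).

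Desmosomes anchor keratin filaments at the cell border. The list of desmosome genes and keratin linkers had 11 of 14 genes tested. It also holds the integrins Itga6 and Itgb4, so the 11 are not all desmosome genes. None of the 18 probe sets tested passed for either mean effect. Left out as dim were Dsp, Pkp1 and Pkp3. The plakophilin Pkp2 lay at 1040.03 to 1660 and the desmosomal cadherin Dsg2 at 787 to 1243. Both probe sets of Dsp, the plakin that links keratins to the desmosome, were dim. Of 4 plakophilins 2 were bright enough, with Pkp1 at 3.52 to 69.1 and Pkp3 at 8.86 to 70.2 among the dim. None of the 7 probe sets of other cadherins, among them 2 of Cdh2 (N-cadherin), and none of the 8 of epithelial regulators passed for either mean effect. Of 13 such regulators with a probe set, 7 were bright enough, while Ehf, Elf3, Klf4, Muc1, Rab25 and Spint1 were dim. Among those tested, Grhl3, a grainyhead transcription factor, lay at 1687 to 2737 and Spint2, a protease inhibitor of epithelia, at 2823 to 4514.

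Vim was also set beside other mesenchymal genes and factors that drive epithelial to mesenchymal transition, of which 9 of 17 genes with 13 probe sets were tested. The transition factors Snai1 and Twist1 were dim and Zeb1 lay at 722 to 1498. For the mean effect of iodide 3 of the 13 probe sets fell, 2 of Sparc, a matrix glycoprotein, and that of Fn1 (fibronectin). None rose, and of all probe sets tested 0.854% passed in either direction. The brighter Sparc probe set had 2410.2 and 3141 in L629F cells with iodide and 3712 and 5223 with chloride, against 1629 and 2096 in WT cells with iodide and 4487 and 5246 with chloride. Its mean difference was -1.02 ± 0.14 log2 (limma, adjusted p = 0.00419) and that of Fn1 was -1.07 ± 0.15 (0.00621), where Vim had 0.28 ± 0.13 (0.421). For the mean effect of L629F 2 of the 13 rose, against 1.76% of all probe sets that passed in either direction. They were Fn1, by 0.97 ± 0.15 (limma, adjusted p = 0.00801), and S100a4, a calcium-binding protein of motile cells, by 1.12 ± 0.18 (0.00817). The Fn1 call for iodide was lost without WT chloride replicate 2 (adjusted p = 0.0586), and those of Fn1 and S100a4 for L629F without WT chloride replicate 1 (0.0609 and 0.0538). The brighter Sparc probe set passed whichever array was removed. The dimmer one, at -0.96 ± 0.15 (limma, adjusted p = 0.00997), did not without WT chloride replicate 2, L629F chloride replicate 2 or L629F iodide replicate 1 (up to 0.0803). The median over the 13 probe sets was -0.0044 log2 for iodide and 0.20 for L629F. Those calls were for mean effects. Within lines, both Sparc probe sets fell with iodide in WT cells (-1.375 and -1.24 log2, limma, adjusted p = 0.0124 and 0.0334). None of the 13 passed for iodide in L629F cells (lowest adjusted p 0.263). S100a4 was higher in L629F cells with chloride (1.48 log2, adjusted p = 0.0434) but did not pass with iodide (0.76, 0.312). The S100a4 call and the WT call of the dimmer Sparc probe set were lost without the dim filter. The S100a4 call was also lost with a pseudocount of 10 or centred arrays, and that Sparc call with only the compared arrays fitted. That the brighter Sparc probe set passed whichever array was removed applies to its mean effect, not to its WT call. Without WT iodide replicate 1 the WT differences of the brighter and dimmer Sparc probe sets were -1.197 and -0.971 log2.

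**Figure D3:**
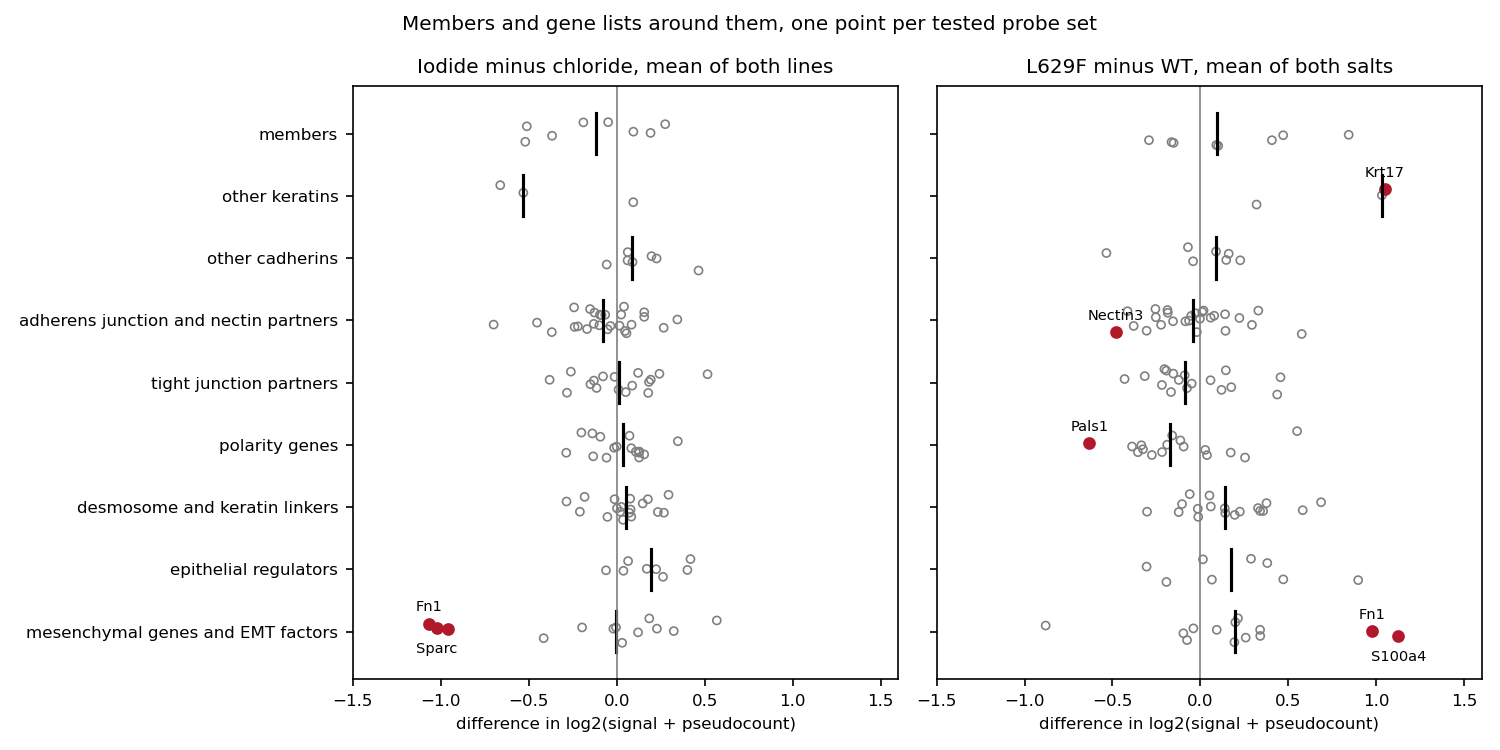
Difference in log2(signal + 35.3) for each tested probe set of the members and of the partner and mesenchymal lists, iodide minus chloride on the left and L629F minus WT on the right, with a black bar at each list's median and adjusted p under 0.05 in red. No member is red, and for iodide the red points are those of Sparc and Fn1.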

How the data were processed

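RNA of 8 FRTL-5 samples was hybridised to Affymetrix rat arrays. The deposited values are linear MAS5 signal intensities, per the submitters' processing notes, which the authors had scaled so that the mean without the lowest and highest 2% was 500.2 on every array. The MAS5 settings were not given in the sources used here. Of 31099 probe sets, 20826 carried 1 gene symbol in the platform annotation, and 20758 of these matched a current RefSeq entry.

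Signals were taken as log2(signal + 35.3), the 25th percentile being the pseudocount, which understates changes of dim probe sets. The 57 control probe sets were removed, as was the dimmest 40% of the rest by mean log2 value. The remaining 18625 entered a linear model (limma 3.58.1, R 4.3.3, lmFit and eBayes with an intensity trend, 1 coefficient per group, 4 residual and 8.9 prior degrees of freedom). P-values are two-sided and Benjamini-Hochberg adjusted over all 18625, with a threshold of 0.05. The number of arrays limits the precision: the median SE was 0.235 log2 within a line and 0.166 for a mean over both. The fit ran per probe set, since every probe set of a member counts, and was tested on simulated data.

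All member probe sets are named whatever their p. From the partner and mesenchymal lists, up to 3 that passed per comparison are named, besides genes that show a cell type or family as present or dim. Of the follicular cell genes, read only as a check of cell type, Duox2 passed for the mean effect of L629F (limma, adjusted p = 0.0412). Slc5a5 passed for that of iodide (0.0455). Pkp2, Dsg2, Grhl3, Spint2, Zeb1, F11r, Cgn, Cldn12, Ctnna1, Ctnnb1, Ctnnd1 and Jup were chosen as examples after their values were seen. Likeness to Krt8, the tested member with the widest range of group means, was read over the 8 arrays. Members and lists were chosen with earlier results of these data known. Alternatives were another pseudocount, filter, scaling or probe set rule, a replicate block, an RNA quality covariate, no intensity trend, and each array left out. Replicate arrays correlated at 0.962 to 0.976 on the log2 scale, and none were identical. Figures were drawn with matplotlib 3.10.9.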

Additional observations from a re-analysis of the deposited data

Results flagged for a closer look

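The dimmer Tjp1 probe set was singled out because both iodide arrays lay above both chloride arrays in L629F cells and below them in WT cells. The iodide difference in L629F cells minus that in WT cells was 1.02 ± 0.55 log2 (95% interval -0.17 to 2.20), and did not pass (limma, unadjusted p = 0.086, adjusted p = 0.998). The brighter Tjp1 probe set did not have the pattern.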

How the results depend on the processing

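No member passed in any of the 7 comparisons as reported. The count became 1 for iodide in WT cells and for the mean effect of iodide with the lowest 60% left out (Krt7, adjusted p = 0.0465 and 0.0451) or with the brightest probe set per gene (Krt7, 0.0374 and 0.037), both of which test fewer probe sets. With a replicate block it became 1 for the same comparisons (Krt7, 0.0129 and 0.0191) and for the mean effect of L629F (Cdh16, 0.0373). The labels do not say that a replicate number marks a shared culture or day. Deviations of same-numbered arrays correlated at 0.0407 to 0.209 between groups, positive in all 6 pairs of groups but not over 0.1 in each, so the block was kept as an alternative. The GAPDH ratio and the signals of Vim and the brighter Tjp1 probe set were higher on the replicate 2 array in 4 of 4 groups, and whether the numbers pair the arrays is not settled by these values. For the mean effect of L629F the count was also 1 with the brightest probe set per gene (Cdh16, 0.0475) and with the GAPDH ratio as a covariate (Ocln, 0.0258), where the cause was not tested. With each array left out it ranged from 0 to 1 for both mean effects, and the 1 was Ocln without WT iodide replicate 1. With each array left out in turn Krt7 had -0.57 to -0.46 for iodide (adjusted p 0.0707 to 0.316) and Cdh16 0.76 to 0.93 for L629F (0.0746 to 0.203). Of 1005 member values under alternatives, 37 changed sign, none of them past the threshold. Over all probe sets the number that passed for the mean effect of iodide was 159, and 2 to 534 under alternatives. For the mean effect of L629F it was 327, and 26 to 1347, with 213 higher and 114 lower as reported, against 157 and 1190 once every array was set to 1 common median. For iodide the split was 39 higher and 120 lower, against 77 and 97 when centred. The low signals of Krt18, Krt19, Cdh1 and Epcam limit what can be said of them.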
